A study of Mus musculus with 20 samples.

Results

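The 38 genes described here encode proteins that copy DNA or prepare a cell for S phase. They were chosen by known function and matched by gene symbol to the count tables, in which all 38 were listed among 25246 genes. By role, 12 of them license origins or form the helicase, 12 work at the fork, the clamp or in joining strands, 5 supply nucleotides, 6 handle chromatin and methylation of new DNA, and 3 act at the entry to S phase. They were measured in single thymic precursors of intestinal intraepithelial lymphocytes (IELPs), in 1413 of 1920 cells that held at least 2000 transcripts.

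Replication starts from origins at which the hexamer of Mcm2 to Mcm7 is loaded by Cdc6 and Cdt1 and later turned into a moving helicase by Cdc45 and the GINS proteins. Pcna is the ring that holds polymerases on DNA, and it is loaded by the Rfc proteins and bound by many partners. Most of these genes are transcribed in late G1 and S phase under the control of E2F factors, so that their transcripts mark cells that cycle. In the thymus, cycling is best known in early double negative precursors after pre-TCR signalling, whereas most CD4+CD8+ thymocytes rest, and C-Myc is known as a driver of growth in cells that enter the cycle.

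The study asked how IELPs mature and what C-Myc contributes to it. Cells were sorted as CD4-CD8-TCRb+NK1.1- thymocytes after bead depletion of CD4+ and CD8+ cells, although the text submitted with the data calls them NK1.1+. Each of 3 genotypes was 1 mouse, and all 3 carried TBGR, a ZsGreen transgene that reports T-bet (encoded by Tbx21). The TBGR mouse was 4 weeks old with C-myc not targeted and gave 2 libraries of 96 cells for each of 4 populations, which are CD122-T-bet- cells, then CD122+T-bet- cells, then those sorted as CD122+T-bet int and last those sorted as CD122+T-bet high. This order is called the TBGR series below. The TBGR C-mycfl/fl mouse was 2 weeks old, carried floxed C-myc without Cre and gave 8 libraries. Of these, 4 held 48 CD122-T-bet- cells beside 48 CD122+T-bet- cells, and 4 held 48 cells with T-bet int beside 48 with T-bet high, all CD122+. The TBGR C-mycD/DCd4 mouse was 2 weeks old, lost floxed C-myc in cells that had expressed a Cd4-driven Cre and gave 2 libraries of CD122-T-bet- cells and 2 more of CD122+T-bet- cells. Since each genotype was 1 mouse, and the TBGR mouse also differed in age, genotype, age and animal cannot be told apart, no test was run, and intervals cover counting error only. Library numbers follow the labels, and values of a population are given from library 1 on. Where values of several populations follow each other, CD122-T-bet- cells come first.

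Levels are transcripts per 1000000 transcripts (CPM) after summing the cells of a library or population, and the median cell held 3298 to 7809.5 transcripts across the libraries. Reads come from the 3' end of transcripts, so that a CPM counts molecules and needs no correction for length. Myc, the targeted gene, stood at 16.7 and 30.0 CPM in the CD122-T-bet- libraries of the TBGR C-mycD/DCd4 mouse, within the 14.0 to 63.0 CPM of the TBGR C-mycfl/fl ones. In CD122+T-bet- libraries it stood at 44.5 and 9.96 CPM against 73.8, 125, 135 and 10.6 CPM, so that the genotypes overlapped in both populations, and the pooled 25.1 CPM of the TBGR C-mycD/DCd4 mouse rests on 2 unlike libraries. Whether the counted 3' end lies in the deleted part of C-myc is not given in the sources used here. Il2rb, which encodes CD122, ranged from 2.61 to 9.88 CPM in the 3 CD122-T-bet- populations and from 222 to 515 CPM in the CD122+ ones, and Tbx21 was higher in T-bet high than in T-bet int libraries of both mice that had them, at 214 and 64.3 CPM against 40.9 and 55.3 CPM in the TBGR mouse and at 25.0 to 75.6 CPM against 12.4 to 23.4 CPM in the TBGR C-mycfl/fl mouse. None of the 5 measured genes of the alpha beta T cell list was at 0 in any population, and they summed to 799 to 2930 CPM in the libraries. Lck, Cd3g and Cd3d led them with 5116, 4641 and 3973 transcripts over all kept cells. Their sum thus does not by itself tell alpha beta from gamma delta T cells. Klrb1c, which encodes NK1.1, and the NKT cell factor Zbtb16 together reached 592 CPM in TBGR CD122+T-bet high cells (484 to 645 CPM in the libraries), against 6.12 CPM in TBGR CD122-T-bet- cells. From T-bet int to T-bet high cells, however, 1 of these 2 genes was higher and 1 lower in both mice with these sorts. Their sum thus does not by itself identify NKT cells. The libraries used 2 sets of 96 cell barcodes, 10 libraries each, and 0 pairs of cells had identical counts. Library 2 of the TBGR CD122+T-bet high cells stood apart, with 55 kept cells and 124 transcripts per barcode without a cell, where the other libraries had at most 40.3. It was also near the T-bet int libraries in Tbx21, and the sums and counts of the last TBGR step are given with and without it.

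Promoter sequence was searched for 4 motifs, none of which was found in all of the genes. RefSeq windows on GRCm38.p6 from 250 bases before to 50 bases after the start were matched for 33 of the 38 genes, 1 of them under another symbol. An E2F-type word (TTTCCCGC, TTTCGCGC, TTTGCCGC or TTTGGCGC, either strand) was found in 14 of the 33 (42.4%), against 2.60% of all 27025 genes with a window and 4.93% of the 8504 genes with at least 20 transcripts in these cells. The 14 were Mcm3, Mcm5, Mcm6, Mcm7, Cdc6, Cdt1, Rfc3, Pola1, Lig1, Uhrf1, Dnmt1, Hells, Clspn and 2810417H13Rik. CCAAT, either strand, occurred in 20 of 33 windows (60.6%) against 41.1% of all genes and 43.2% of those with at least 20 transcripts. The E-box CACGTG occurred in 4 (12.1%) against 8.09% of all and likewise 12.1% of the latter, and the CHR word TTTGAA in 4 (12.1%) against 20.2 and 14.5%. Among genes of G2 and mitosis the order differed, with the E2F-type word in 1 of 27 windows (3.70%), CCAAT in 22 (81.5%) and TTTGAA in 18 (66.7%). A match is a run of letters and not a shown binding site. The 4 windows below cover the 180 bases before the start and were chosen to show 3 helicase genes with E2F-type words and CCAAT, and Rrm2, with 1 CCAAT and none of the E2F-type words in these bases. They read 5' to 3' along the gene's strand, with E2F-type words and CCAAT, or their reverse complements, in capitals.

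Mcm6 (chr1:128359706-128359885, minus strand): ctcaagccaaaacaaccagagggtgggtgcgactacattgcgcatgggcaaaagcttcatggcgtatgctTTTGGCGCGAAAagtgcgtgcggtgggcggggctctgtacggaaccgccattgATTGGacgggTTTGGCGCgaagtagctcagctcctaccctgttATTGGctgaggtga
Mcm7 (chr5:138171884-138172063, minus strand): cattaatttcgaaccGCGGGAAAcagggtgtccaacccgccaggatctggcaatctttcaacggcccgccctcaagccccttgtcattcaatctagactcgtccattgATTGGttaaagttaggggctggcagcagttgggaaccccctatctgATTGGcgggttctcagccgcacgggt
Mcm5 (chr8:75109329-75109508, plus strand): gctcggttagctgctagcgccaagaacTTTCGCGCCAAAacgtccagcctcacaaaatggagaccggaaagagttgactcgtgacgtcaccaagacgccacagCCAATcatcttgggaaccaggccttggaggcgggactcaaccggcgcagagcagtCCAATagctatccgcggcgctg
Rrm2 (chr12:24708074-24708253, plus strand): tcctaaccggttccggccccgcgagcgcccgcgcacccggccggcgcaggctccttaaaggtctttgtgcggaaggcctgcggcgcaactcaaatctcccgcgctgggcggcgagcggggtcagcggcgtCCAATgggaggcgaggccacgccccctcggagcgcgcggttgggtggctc

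Summed over the 38 genes, transcripts were lowest at both ends of the TBGR series and highest between them. The TBGR libraries gave 1021 and 683 CPM in CD122-T-bet- cells, 2687 and 2255 CPM among those sorted as CD122+T-bet-, 3864 and 3167 CPM among those sorted as CD122+T-bet int, and 972 and 2287 CPM among those sorted as CD122+T-bet high. The TBGR C-mycfl/fl libraries gave 3777, 898, 3874 and 2134 CPM in CD122-T-bet- cells and 5278, 5280, 4331 and 2758 CPM in their CD122+T-bet- counterparts. Its CD122+T-bet int cells gave 5456, 4989, 5512 and 3689 CPM and the T-bet high ones 3345, 2646, 3769 and 2194 CPM. The 2-week-old mouse was thus above the 4-week-old one in each pooled population, while libraries overlapped in 3 of the 4, with library 2 of its CD122-T-bet- cells and library 4 of both its T-bet int cells and those sorted as T-bet high within the range of the TBGR libraries. The TBGR C-mycD/DCd4 libraries gave 3543 and 4726 CPM in CD122-T-bet- cells and 1556 and 1854 CPM in the other population, so that the order of the 2 populations was the opposite of that in both other mice. Gene by gene, the highest population was TBGR C-mycfl/fl CD122+T-bet int for 18 members and TBGR C-mycfl/fl CD122+T-bet- for 10, and the lowest was TBGR CD122-T-bet- for 28.

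**Figure D1:**
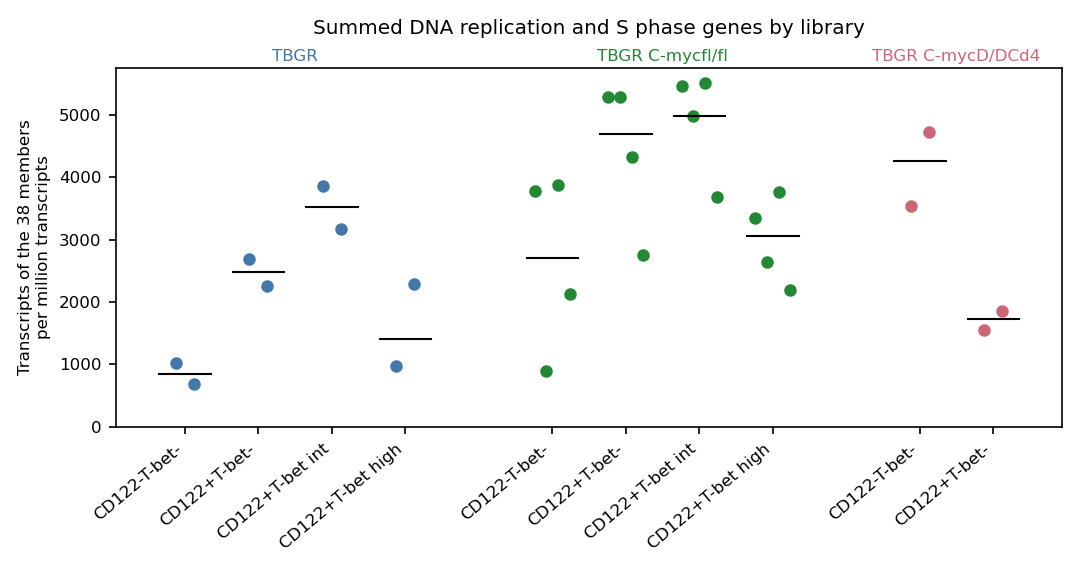
Summed CPM of the 38 replication and S phase genes in each library, by genotype and sorted population; each point is 1 library and the horizontal line is the pooled population. The TBGR C-mycD/DCd4 CD122+T-bet- libraries (1556 and 1854 CPM) lie below all 4 TBGR C-mycfl/fl libraries of that population (2758 to 5280 CPM), and the TBGR C-mycfl/fl CD122-T-bet- libraries range from 898 to 3874 CPM.

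Cells differed widely in these genes. After each cell was thinned to 2000 transcripts, a cell was counted as high if at least 10 of them, 0.5%, came from the 38 genes. Over all populations 223 of 1413 cells were high, and by this definition they held more of the members, with a transcript of a median of 11 of the 38 genes (6 to 21) against 1 in the other cells. In the TBGR mouse, 1 of 174 CD122-T-bet- cells was high (0.575%, exact 95% interval 0.0145 to 3.16%), against 18 of 186 CD122+T-bet- cells (9.68%, 5.84 to 14.9%), 32 of 171 cells sorted as CD122+T-bet int (18.7%, 13.2 to 25.4%) and 2 of 147 sorted as CD122+T-bet high (1.36%, 0.165 to 4.83%). Both ends of the TBGR series thus held few high cells. Their libraries had 1.15 and 0% (CD122-T-bet-) and 0 and 3.64% (CD122+T-bet high), against 11.7 and 7.61% and then 24.1 and 13.1% in the 2 middle populations. The TBGR C-mycfl/fl mouse had 18 of 120 (15.0%, 9.14 to 22.7%), 40 of 122 (32.8%, 24.6 to 41.9%), 49 of 116 (42.2%, 33.1 to 51.8%) and 28 of 112 (25.0%, 17.3 to 34.1%) in the same order. In the TBGR C-mycD/DCd4 mouse 26 of 128 CD122-T-bet- cells (20.3%, 13.7 to 28.3%) were high, and 9 of 137 CD122+T-bet- cells (6.57%, 3.05 to 12.1%). In CD122+T-bet- cells its libraries had 8.62 and 5.06%, below the 47.1, 37.1, 25.8 and 13.6% of the TBGR C-mycfl/fl libraries and overlapping the 11.7 and 7.61% of the TBGR ones. The intervals count cells of 1 mouse and do not cover the spread of libraries or mice.

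High cells held 6.19, 37.4, 60.8 and 14.8% of the members' thinned transcripts along the TBGR series, 67.2 to 78.9% in the TBGR C-mycfl/fl populations, and 80.9 and 30.7% in the TBGR C-mycD/DCd4 ones. In 4 of the 10 populations most of the sum thus came from cells that were not high. From 0 cells (both ends of the TBGR series) to 23 of 122 (TBGR C-mycfl/fl CD122+T-bet-) scored 8 to 11, close to the limit. The median score was 7 and 7.5 in TBGR C-mycfl/fl cells sorted as CD122+T-bet- or as CD122+T-bet int and 1 to 3 in the other populations. High cells held more transcripts in all than the other cells in 17 of the 23 libraries and populations with at least 3 of them, and without thinning the share of high cells was 0.575, 8.60, 18.1 and 2.04% along the TBGR series, 14.2, 33.6, 41.4 and 27.7% in the same order in the TBGR C-mycfl/fl mouse, and 20.3 and 6.57% in the TBGR C-mycD/DCd4 mouse. Barcodes without a cell held 140 transcripts of the 38 genes in 1920 barcodes, at most 4 in any of them.

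**Figure D2:**
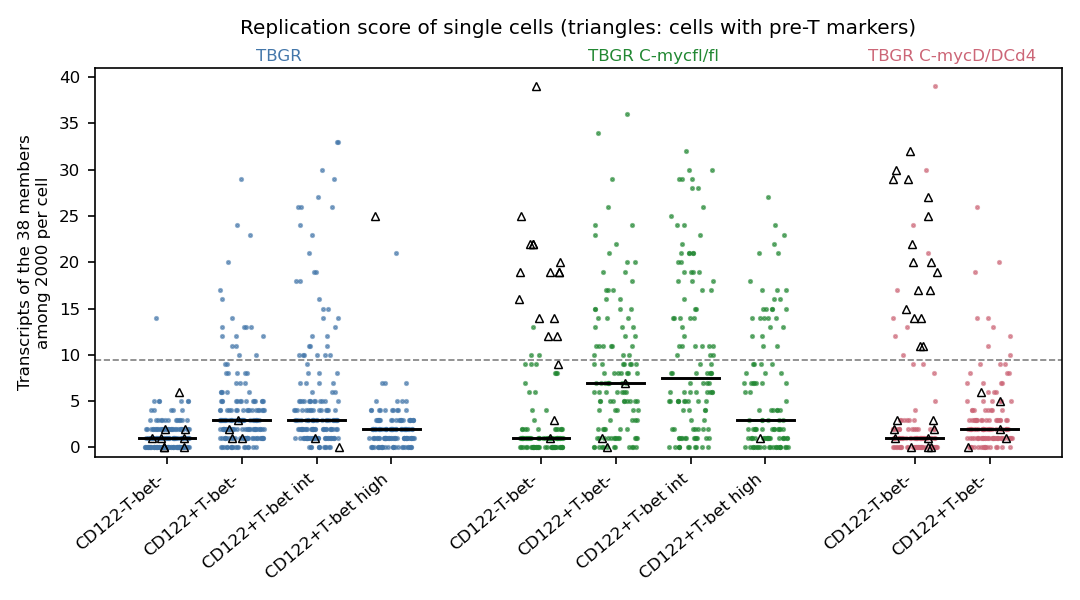
Score of each cell, the transcripts of the 38 genes among 2000 per cell, by genotype and sorted population. Cells above the dashed line, with a score of at least 10, count as high, and horizontal lines are medians; triangles are cells with early T cell (pre-T) transcripts, which make up 15 of the 18 high TBGR C-mycfl/fl CD122-T-bet- cells.

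Along the TBGR series, replication genes were higher at the second population than at the first, somewhat higher again with T-bet int and lower with T-bet high. In the first step the summed log2 ratio was 1.55 (1.44 to 1.66) with every CD122+T-bet- library above both CD122-T-bet- ones. At least 2-fold higher with no overlap of the libraries, the criterion used throughout, were 26 of the 35 members with at least 20 transcripts, where 14.3% of 9262 genes met the same criterion upwards and 3.92% downwards. The median member had a log2 ratio of 1.51 and the median gene of all tested 0.26. The widest differences were in Pola1, the catalytic subunit of the polymerase that primes both strands, at 3.66 (2.04 to 7.06) from 2 against 47 transcripts, and in 2810417H13Rik (Pclaf), a Pcna-binding factor, at 3.64 (2.91 to 4.58).

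In the second step, to TBGR CD122+T-bet int cells, the sum differed by a log2 ratio of 0.50 (0.44 to 0.57) and the libraries did not overlap. Only Uhrf1, Ccne2, Tyms, Rfc4, Cdc6 and Rrm2 met the criterion, 6 of 37, against 3.49% of 9461 genes upwards and 6.94% downwards. Among helicase genes the log2 ratio at this step was 0.03 for Mcm6 and -0.04 for Mcm7, whereas Rrm2 reached 1.86 (1.46 to 2.30).

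In the last step, to CD122+T-bet high cells, the sum was lower by a log2 ratio of -1.32 (-1.42 to -1.22) and 23 of 37 members met the criterion downwards, against 11.7% of 8564 genes, with 7.93% upwards. Median values were -1.45 for the members and -0.09 for all genes. The count depends on library 2 of the CD122+T-bet high cells. With that library alone 8 members met the criterion, against 16.7% of 7816 genes, and the ratio was -0.62. With library 1 alone 30 met it, against 13.5% of 8275 genes, and the ratio was -1.86. In library 2, 1 of the 2 high cells held 30 transcripts of Rag1, 18 of Dntt and 7 of Ptcra. These are genes of antigen receptor rearrangement and the pre-TCR. It counted as a pre-T marker cell, defined below, as did 2 TBGR cells with T-bet int. Leaving out these cells gave a ratio of -1.53 with 28 members past the criterion, against 12.6% of 8524 genes.

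Among licensing and helicase genes, which gave 29.4 to 44.5% of the members' transcripts in each population, Mcm6 was the most abundant of all 38 genes with 2364 transcripts. Mcm6 stood at 86.8 and 64.4 CPM in TBGR CD122-T-bet- cells, 308 and 269.6 CPM among those sorted as CD122+T-bet-, 332 and 258 CPM among those sorted as CD122+T-bet int and 110.3 and 227 CPM among those sorted as CD122+T-bet high. It gave 257, 102, 289 and 104 CPM in TBGR C-mycfl/fl CD122-T-bet- cells and 456, 548, 519 and 223 CPM in their CD122+T-bet- counterparts, and 291 to 510.2 CPM in the CD122+T-bet int cells and 167 to 237 CPM in the T-bet high ones of that mouse. In the TBGR C-mycD/DCd4 mouse Mcm6 gave 214 and 296 CPM in CD122-T-bet- cells and 206 and 212 CPM in the other population. These last libraries lay below every CD122+T-bet- library of the TBGR C-mycfl/fl mouse and also below both TBGR ones, and the log2 ratio to the TBGR C-mycfl/fl mouse was -1.17 (-1.46 to -0.90). Mcm7, the partner of Mcm3 and Mcm4 in the ring, gave 62.0 and 60.4, then 155 and 187, then 186 and 144 and last 40.3 and 107 CPM along the TBGR series. Its libraries gave 305, 93.0, 236 and 116 CPM in TBGR C-mycfl/fl CD122-T-bet- cells and 359.6, 280.5, 307 and 180.3 CPM in their CD122+T-bet- counterparts, and 201 and 279 CPM in CD122-T-bet- cells and 76.2 and 115 CPM in the other population of the TBGR C-mycD/DCd4 mouse. In the latter mouse the 2 populations differed more in Mcm7, with a log2 ratio of CD122+T-bet- cells to the others of -1.34 (-1.76 to -0.94), than in Mcm6, with -0.33 (-0.65 to -0.02), and the libraries did not overlap for either gene.

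Mcm5 gave 62.0 and 36.2, then 123 and 127, then 133 and 155 and last 44.6 and 98.5 CPM along the TBGR series. For the same gene the values were 175, 23.3, 138 and 30.5 CPM in TBGR C-mycfl/fl CD122-T-bet- cells and 189, 178, 176 and 138 CPM in their CD122+T-bet- counterparts, and 87.0 and 159 and then 79.4 and 129 CPM in the TBGR C-mycD/DCd4 mouse. Only Mcm5 and Mcm2 of the hexamer had libraries of the latter mouse that overlapped between the populations. Mcm2, with 47.5 and 30.2, then 89.0 and 50.5, then 103 and 71.2 and last 36.1 and 68.5 CPM along the TBGR series, gave 165, 41.9, 89.0 and 67.1 CPM in TBGR C-mycfl/fl CD122-T-bet- cells and 217, 205, 153 and 138 CPM in their CD122+T-bet- counterparts. In the TBGR C-mycD/DCd4 mouse Mcm2 stood at 63.6 and 180.0 and then 66.7 and 109.5 CPM. The CD122+T-bet- libraries of the TBGR C-mycfl/fl mouse all exceeded those of the TBGR and TBGR C-mycD/DCd4 mice for Mcm2.

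Mcm3 gave 26.9 and 34.2, then 103 and 72.1, then 98.5 and 112 and last 36.1 and 77.1 CPM along the TBGR series. Its other values were 112, 32.6, 142 and 30.5 CPM in TBGR C-mycfl/fl CD122-T-bet- cells and 143, 142, 162 and 42.4 CPM in their CD122+T-bet- counterparts, and 110.4 and 141 and then 76.2 and 89.6 CPM in the TBGR C-mycD/DCd4 mouse. Library 4 of the TBGR C-mycfl/fl CD122+T-bet- cells stood apart from the other 3 for Mcm3, so that the genotypes overlapped in CD122+T-bet- cells, where the log2 ratio was -0.69 (-1.18 to -0.23). Mcm4 gave 28.9 and 24.2, then 70.9 and 70.6, then 124 and 80.6 and last 33.9 and 64.3 CPM along the TBGR series, then 121, 14.0, 107 and 18.3 CPM in TBGR C-mycfl/fl CD122-T-bet- cells and 166, 138, 113 and 63.6 CPM in their CD122+T-bet- counterparts, and 83.6 and 96.5 and then 60.3 and 82.1 CPM in the TBGR C-mycD/DCd4 mouse. All 6 ring genes were higher in each TBGR CD122+T-bet- library than in either CD122-T-bet- one, with log2 ratios from 0.86 for Mcm2 to 1.93 for Mcm6. The scarcer genes of the group, Mcm10, Gins1, Gins2, Cdc6, Cdt1 and Cdc45, had at most 30.0% of high cells with a transcript. Mcm10 had the widest difference of all members in the last step of the TBGR series, with 1 against 32 transcripts, -3.56 (-9.47 to -1.54), and Cdt1 was the only member above 0 there, at 0.20 (-0.36 to 0.73).

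Of the fork, clamp and repair genes, 2810417H13Rik had the widest range in CPM between populations, from 14.3 to 476 CPM. It gave 28.9 and 0 CPM in TBGR CD122-T-bet- cells, 245 and 115 CPM among those sorted as CD122+T-bet-, 335 and 346 CPM among those sorted as CD122+T-bet int and 8.49 and 163 CPM among those sorted as CD122+T-bet high. Its values were 359, 83.7, 347 and 366 CPM in TBGR C-mycfl/fl CD122-T-bet- cells and 507, 449.7, 374 and 223 CPM in their CD122+T-bet- counterparts, and 405 to 523 CPM in the CD122+T-bet int cells and 250.3 to 564 CPM in the T-bet high ones of that mouse. In the TBGR C-mycD/DCd4 mouse it gave 271 and 474 CPM in CD122-T-bet- cells and 54.0 and 44.8 CPM in the other population. Both last values lay below the lowest TBGR C-mycfl/fl CD122+T-bet- library, and the log2 ratio of -3.07 (-3.64 to -2.58) was the widest of all members between these genotypes. A transcript of this gene was found in 71.3% of high and 6.39% of other cells at 2000 transcripts, although it is part of the score that defines high cells.

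Pcna, the clamp itself, gave 143 and 82.6, then 228 and 208, then 365 and 255 and last 89.1 and 287 CPM along the TBGR series. It gave 92.1, 27.9, 147 and 73.2 CPM in TBGR C-mycfl/fl CD122-T-bet- cells and 175, 187, 113 and 106 CPM in their CD122+T-bet- counterparts, and 181 and 231 and then 88.9 and 94.6 CPM in the TBGR C-mycD/DCd4 mouse. The highest Pcna library was a TBGR one, unlike for Mcm6, and 13% of the cells that were not high had a transcript of Pcna. Reads of Pcna could be shared with its processed copy Pcna-ps2, which the tables list with 1037 transcripts against 1640 of Pcna, so that the level of Pcna is uncertain. Pcna-ps2 had the same order of the TBGR populations, with 55.1, 133, 214 and 83.7 CPM.

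Lig1, the ligase that joins Okazaki fragments, gave 28.9 and 8.05, then 135 and 102, then 153 and 98.0 and last 8.49 and 64.3 CPM along the TBGR series. It gave 136, 27.9, 182 and 61.0 CPM in TBGR C-mycfl/fl CD122-T-bet- cells and 230.5, 240.4, 198 and 169.7 CPM in their CD122+T-bet- counterparts, and 174 and 208 and then 50.8 and 42.3 CPM in the TBGR C-mycD/DCd4 mouse. The CD122+T-bet- libraries of the latter lay below all those of the TBGR C-mycfl/fl mouse by a log2 ratio of -2.22 (-2.82 to -1.69). Prim1, the primase subunit, gave 16.5 and 20.1, then 72.2 and 66.3, then 112 and 52.2 and last 17.0 and 38.6 CPM along the TBGR series, then 92.1, 18.6, 116 and 61.0 CPM in TBGR C-mycfl/fl CD122-T-bet- cells and 143, 147, 85.7 and 63.6 CPM in their CD122+T-bet- counterparts. In the TBGR C-mycD/DCd4 mouse Prim1 stood at 80.3 and 101 and then 19.1 and 42.3 CPM, with a log2 ratio to the TBGR C-mycfl/fl CD122+T-bet- cells of -1.85 (-2.60 to -1.20). Clamp loader genes differed less between the genotypes in CD122+T-bet- cells, with log2 ratios of -0.36 for Rfc2, -0.12 for Rfc3 and -0.52 for Rfc5. Fen1, the flap nuclease, had a transcript in 0.897% of high cells and was mostly too scarce to compare.

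The 5 genes of nucleotide supply took from 9.60% of the members' transcripts in TBGR CD122-T-bet- cells to 22.1% in TBGR C-mycD/DCd4 CD122-T-bet- cells. Rrm2, the regulatory subunit of ribonucleotide reductase, gave 8.27 and 0 CPM in TBGR CD122-T-bet- cells, 60.6 and 24.5 CPM among those sorted as CD122+T-bet-, 145 and 174 CPM among those sorted as CD122+T-bet int and 6.36 and 81.4 CPM among those sorted as CD122+T-bet high. It gave 184, 32.6, 178 and 116 CPM in TBGR C-mycfl/fl CD122-T-bet- cells and 433, 383, 158 and 95.5 CPM in their CD122+T-bet- counterparts, and 189.8 to 324 CPM in the CD122+T-bet int cells and 108 to 257 CPM in the T-bet high ones of that mouse. In the TBGR C-mycD/DCd4 mouse Rrm2 stood at 314 and 272 CPM in CD122-T-bet- cells and 50.8 and 29.9 CPM in the other population. Library 2 of the TBGR CD122+T-bet high cells was high and library 1 low for Rrm2, and the TBGR C-mycD/DCd4 populations were separated by a log2 ratio of -2.86 (-3.51 to -2.31). At 2000 transcripts, 60.5% of high and 2.69% of other cells had a transcript of Rrm2, and the mean per cell differed 35.9-fold, the widest of the 38 genes, although the score that defines high cells includes it.

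Rrm1, the large subunit of the same enzyme, gave 28.9 and 24.2, then 106 and 63.4, then 135 and 172 and last 36.1 and 77.1 CPM along the TBGR series. It gave 131, 14.0, 142 and 48.8 CPM in TBGR C-mycfl/fl CD122-T-bet- cells and 124, 174, 135 and 63.6 CPM in their CD122+T-bet- counterparts, and 187 and 210.1 and then 44.5 and 54.8 CPM in the TBGR C-mycD/DCd4 mouse. In CD122-T-bet- cells the TBGR C-mycD/DCd4 libraries exceeded all 4 of the TBGR C-mycfl/fl mouse for Rrm1, 1.21 (0.80 to 1.65), and for Rrm2, 1.17 (0.83 to 1.52). Dut, which removes dUTP, gave 28.9 and 10.1, then 106 and 82.2, then 153 and 123 and last 25.5 and 90.0 CPM along the TBGR series. It gave 281, 18.6, 298 and 232 CPM in TBGR C-mycfl/fl CD122-T-bet- cells and 263, 267, 235 and 106 CPM in their CD122+T-bet- counterparts, and 201 and 294 and then 47.6 and 49.8 CPM in the TBGR C-mycD/DCd4 mouse. All 5 genes, Tyms and Tk1 included, were past the criterion when CD122+T-bet- cells of the TBGR C-mycD/DCd4 mouse were set against those of the TBGR C-mycfl/fl mouse, all downwards, with log2 ratios from -1.41 for Rrm1 to -2.90 for Rrm2.

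Among chromatin and methylation genes, Slbp and Dnmt1 were also found in many cells that were not high, with a transcript in 16.1 and 10.7% of them. Slbp, which binds histone mRNA, gave 74.4 and 58.4 CPM in TBGR CD122-T-bet- cells, 109.6 and 124 CPM among those sorted as CD122+T-bet-, 221 and 147 CPM among those sorted as CD122+T-bet int and 134 and 107 CPM among those sorted as CD122+T-bet high. It gave 126, 37.2, 129 and 48.8 CPM in TBGR C-mycfl/fl CD122-T-bet- cells and 175, 249, 158 and 117 CPM in their CD122+T-bet- counterparts, and 187 and 201 and then 105 and 159 CPM in the TBGR C-mycD/DCd4 mouse. Library 1 of the TBGR CD122+T-bet high cells stood at 134 CPM of Slbp with 0 high cells among 92, and the log2 ratio between the genotypes in CD122+T-bet- cells was -0.45 (-0.84 to -0.07), with libraries that overlapped. Dnmt1, the maintenance methyltransferase, gave 35.1 and 56.4, then 98.0 and 62.0, then 141 and 134 and last 91.2 and 94.2 CPM along the TBGR series. It gave 136, 55.8, 107 and 122 CPM in TBGR C-mycfl/fl CD122-T-bet- cells and 212, 214, 144 and 117 CPM in their CD122+T-bet- counterparts, and 100.4 and 174 and then 66.7 and 79.7 CPM in the TBGR C-mycD/DCd4 mouse. Unlike Slbp, Dnmt1 had CD122+T-bet- libraries of the latter below all 4 of the TBGR C-mycfl/fl mouse. Hells, a chromatin remodeller that works with Dnmt1, gave 33.1 and 10.1, then 46.4 and 41.8, then 87.9 and 79.1 and last 8.49 and 34.3 CPM along the TBGR series. It gave 126, 4.65, 178 and 61.0 CPM in TBGR C-mycfl/fl CD122-T-bet- cells and 87.6, 98.0, 149 and 106 CPM in their CD122+T-bet- counterparts, and 53.5 and 133 and then 41.3 and 42.3 CPM in the TBGR C-mycD/DCd4 mouse. Hells met the criterion downwards in 4 of the 9 comparisons, the most of any member. Chaf1a was too scarce to compare and Chaf1b differed at least 2-fold without overlap in 1 comparison, the last TBGR step.

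Genes of S phase entry were scarce, with 13.5 to 15.2% of high cells holding a transcript of Ccne1, Ccne2 or E2f1. The 2 E-type cyclins stood at 3.06 and 5.10 CPM in TBGR CD122-T-bet- cells and at 57.5 and 39.2 CPM in TBGR C-mycD/DCd4 CD122-T-bet- cells. In CD122-T-bet- cells Ccne1 was higher in both TBGR C-mycD/DCd4 libraries than in the 4 TBGR C-mycfl/fl ones, 2.31 (1.32 to 3.59), from 44 against 9 transcripts. E2f1, which activates many of these genes, overlapped between the genotypes there, at -0.21 (-1.02 to 0.57).

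**Figure D3:**
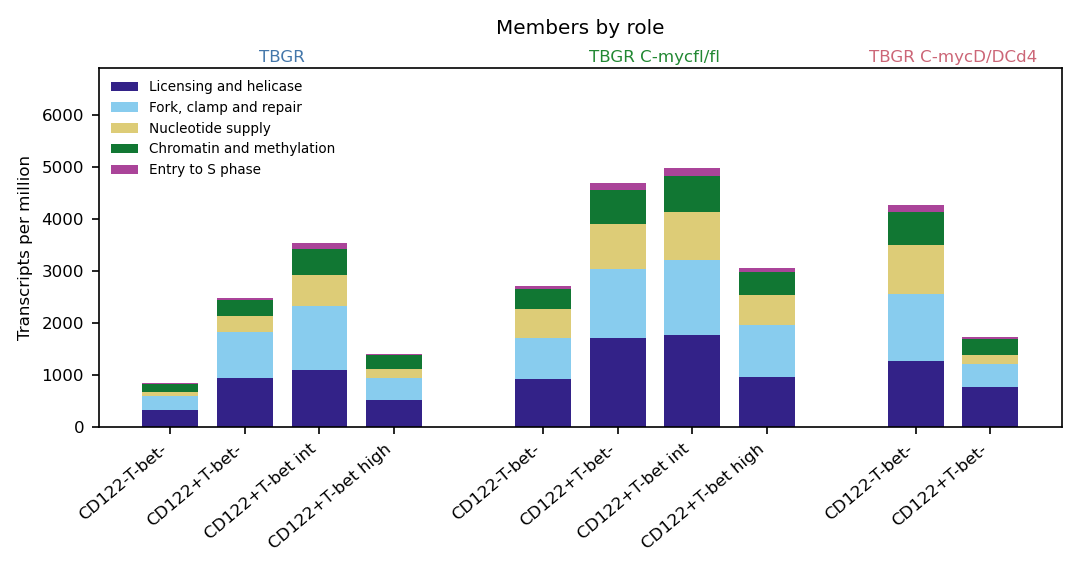
CPM of the 38 genes in each population, stacked by role. Licensing and helicase genes give 29.4 to 44.5% of the members' transcripts and nucleotide supply 9.60 to 22.1%, with the largest share of licensing and helicase genes in TBGR C-mycD/DCd4 CD122+T-bet- cells.

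With all kept cells, the same 3 steps were less separated in the TBGR C-mycfl/fl mouse. The criterion needed 4 libraries apart from 4 here and 2 from 2 in the TBGR mouse, so its counts cannot be set side by side. Without pre-T marker cells, defined below, the ratio of the first step was wider. In the first step, from CD122-T-bet- cells to those with CD122 alone, the summed log2 ratio was 0.79 (0.72 to 0.87), libraries overlapped and 0 of 36 members met the criterion in either direction, against 5.39% of 6790 genes upwards and 0.928% downwards. Since these populations shared libraries, the ratio could be taken within each, and it was 0.48, 2.55, 0.16 and 0.37. The CD122+T-bet- cells were thus higher within all 4 libraries, with library 2 far wider than the rest. With library 4 of the CD122+T-bet- cells left out 8 members met the criterion, and without library 3 or 1 of the CD122-T-bet- cells 4 or 2 did, and 1 did when library 1 of the CD122+T-bet- cells was left out. Leaving out a library can ease the criterion for every gene. The share of all genes was not taken for these counts, so they are not a result about the members. In the second step, to CD122+T-bet int, the ratio was 0.09 (0.02 to 0.15) and 0 of 36 members met the criterion, against 0.562% of 7119 genes upwards and 0.506% downwards. In the last step it was -0.70 (-0.78 to -0.63), and within the libraries -0.71, -0.91, -0.55 and -0.75. Uhrf1, Hells and Mcm6 met the criterion downwards, 3 of 36, against 2.58% of 6908 genes, with 1.36% upwards, and 35 of the 36 members lay below 0. Leaving out 1 library moved that count to between 2 and 10, with 10 and 6 without library 3 or either of libraries 1 and 2 of the T-bet high cells and 9 and 5 without library 4 or 3 of the T-bet int ones. For these counts, too, the share of all genes was not taken. Unlike in the TBGR mouse, 25.0% of the CD122+T-bet high cells still had a high score. Cells sorted as T-bet high were not alike in pooled Tbx21, however. It stood at 165 CPM in the TBGR mouse (214 and 64.3 CPM in its libraries) and at 60.0 CPM in the TBGR C-mycfl/fl mouse. TBGR cells with T-bet int had 48.0 CPM.

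Replication genes were lower in the CD122+T-bet- cells of the TBGR C-mycD/DCd4 mouse than in those of the TBGR C-mycfl/fl mouse, and not in the CD122-T-bet- cells. Between the TBGR C-mycD/DCd4 and TBGR C-mycfl/fl mice, both 2 weeks old, the summed log2 ratio in CD122+T-bet- cells was -1.44 (-1.54 to -1.35) and both libraries of the former lay below all 4 of the latter. Of 35 members, 22 met the criterion downwards and 35 lay below 0, against 6.13% of 7312 genes downwards and 13.5% upwards, and the medians were -1.41 for the members and 0.18 for all genes. The widest differences were in 2810417H13Rik, Rrm2 at -2.90 (-3.54 to -2.35), Tk1 at -2.81 (-4.07 to -1.87) and Uhrf1, which guides Dnmt1 to new DNA, at -2.53 (-3.43 to -1.79). The narrowest were in Rfc3, Rfc2, Slbp, Chaf1b and Rfc5, with log2 ratios between -0.12 and -0.52. Leaving out 1 library moved the sum to between -1.59 and -1.34 and the count to between 20 and 27, for which the share of all genes was not taken.

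In CD122-T-bet- cells the same comparison gave 0.66 (0.58 to 0.73) with libraries that overlapped, and 8 of 36 members met the criterion upwards. This has to be read against 12.9% of 6893 genes upwards, and against a median of 0.45 for all genes beside 0.54 for the members. Counted relative to the median of all genes, 3 members met it, and without library 2 of the TBGR C-mycfl/fl CD122-T-bet- cells 4 did. The share of all genes was not taken for either count, so neither can be set against the 12.9%. Within the TBGR C-mycD/DCd4 mouse CD122+T-bet- cells were below the CD122-T-bet- population by -1.31 (-1.40 to -1.21), with no overlap, and 20 of 35 members met the criterion downwards, against 7.84% of 7425 genes, with 13.4% upwards. When each cell weighed equally this ratio was -0.72, and after thinning all cells to 2000 transcripts -0.64.

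**Figure D4:**
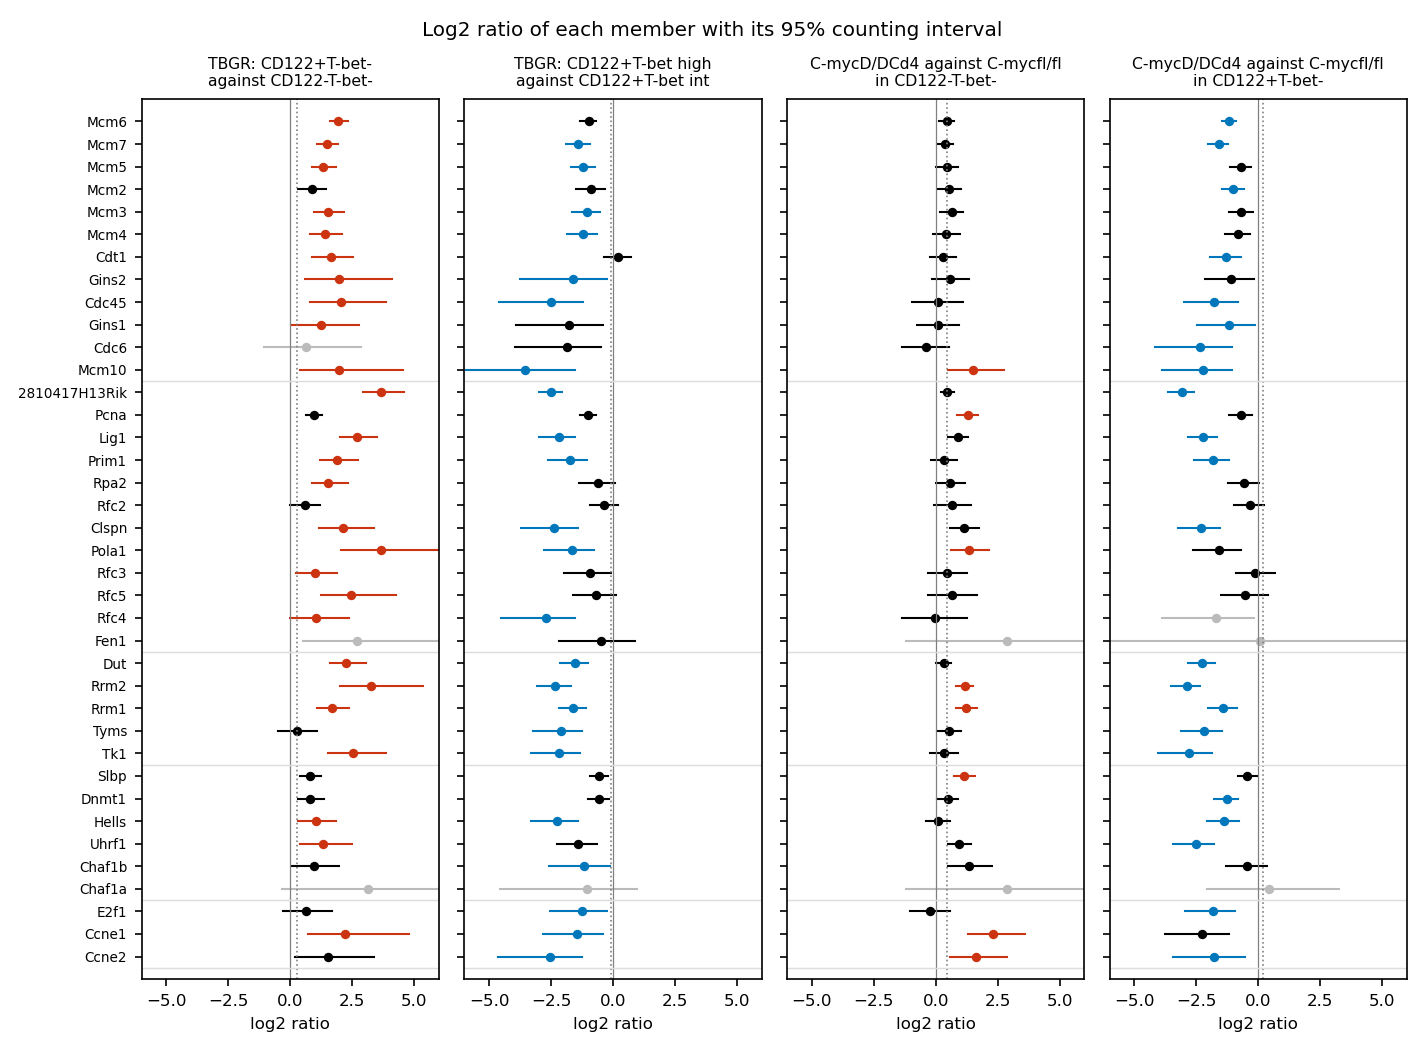
Log2 ratio of each of the 38 genes in 4 comparisons, with 95% counting intervals drawn up to 6 in either direction. Red points met the criterion upwards and blue points downwards, black points did not, grey points had under 20 transcripts, and the dotted line is the median of all genes; all 35 tested members lie below 0 for TBGR C-mycD/DCd4 against TBGR C-mycfl/fl in CD122+T-bet- cells.

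Transcripts of early T cells were present in the CD122-T-bet- populations. Of the 9 markers of CD4+CD8+ double positive and pre-T cells none was at 0 in the CD122-T-bet- cells of the 3 mice, and their summed level was 656 to 786 CPM in the TBGR, 270 to 552 CPM in the TBGR C-mycfl/fl and 767 to 870 CPM in the TBGR C-mycD/DCd4 libraries, against 21.2 to 152 CPM in the CD122+T-bet- libraries of all 3. In the TBGR cells, which had the lowest replication sums, most of this was Cd4. Cells with at least 2 transcripts of Rag1, Rag2, Dntt, Ptcra and Il2ra together, called pre-T marker cells here, numbered 9 of 174 in the TBGR, 18 of 120 in the TBGR C-mycfl/fl and 26 of 128 in the TBGR C-mycD/DCd4 CD122-T-bet- cells. Of these 0, 15 and 17 were high. They held 75.6% of the members' transcripts in the TBGR C-mycfl/fl population, at 8218 CPM against 881 CPM in its other cells, and 74.8% in the TBGR C-mycD/DCd4 one, at 9259 against 1642 CPM. Pre-T marker cells also held more transcripts in all, with medians of 11048 against 5646.5 and 9798 against 4153.5, and their Myc level was 139 CPM (92.3 to 201) against 9.86 CPM (3.62 to 21.5) and 56.9 CPM (31.9 to 93.9) against 7.97 CPM (2.17 to 20.4). The high CD122-T-bet- cells of the 2-week-old mice were thus mostly cells with early T cell transcripts, which was not the case in CD122+T-bet- cells, where 0 of 3 and 0 of 5 pre-T marker cells were high. The marker rule can be met through different genes. Among TBGR cells that were not high, Dntt and Il2ra had 35 and 3 transcripts in CD122-T-bet- cells, against 7 and 26 in CD122+T-bet- cells. Pre-T marker cells of different populations thus need not be alike.

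Without pre-T marker cells, a choice made after seeing the data, 2.94% of TBGR C-mycfl/fl and 8.82% of TBGR C-mycD/DCd4 CD122-T-bet- cells were high. The TBGR C-mycfl/fl libraries of CD122-T-bet- cells then stood at 1843, 634, 508 and 620 CPM and the TBGR C-mycD/DCd4 ones at 1337 and 1849 CPM. The log2 ratio of CD122+T-bet- cells to the CD122-T-bet- population became 2.43 with 24 members past the criterion in the former mouse, against 15% of 6149 genes upwards, and 0.08 in the latter, where it changed sign and 5 members were past the criterion downwards, against 2.78% of 6510 genes. The TBGR mouse, with few such cells, kept a ratio of 1.59 with 26 members, against 14.1% of 9161 genes. Between the genotypes the ratio in CD122+T-bet- cells was -1.46 with 23 members, against 6.28% of 7201 genes, as large as with all cells. In CD122-T-bet- cells it was 0.90 with 7 members, against 16% of 4936 genes.

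Transcripts from the marker lists of gamma delta T cells, B cells and myeloid cells were present too. The 4 measured gamma delta T cell markers summed to 905 to 1047 CPM in the TBGR C-mycD/DCd4 and 173 to 1139 CPM in the TBGR C-mycfl/fl CD122-T-bet- libraries, and to 1036 to 1093 against 189 to 696 CPM in their CD122+T-bet- libraries. Cells with at least 2 transcripts of Trdc, the delta chain constant region, numbered 37 of 128 among TBGR C-mycD/DCd4 and 19 of 120 among TBGR C-mycfl/fl CD122-T-bet- cells, and 12 and 9 of them were high. The sum of the 4 markers was led by Tcrg-C1 and Tcrg-C4, with 3244 and 2594 transcripts against 737 of Trdc. It was highest in TBGR CD122+T-bet high cells, at 1336.5 CPM, where 2 of the 4 were at 0 and 0 of 147 cells met the Trdc rule. This sum thus does not by itself identify gamma delta T cells. Among 137 TBGR C-mycD/DCd4 CD122+T-bet- cells, 1 cell with B cell transcripts (16 of Cd79a and 36 of Ms4a1) held 9.31% of the members' transcripts. B cell marker cells are those with at least 2 transcripts of Cd79a and Ms4a1 together. Leaving out pre-T, B cell and Trdc marker cells together gave -1.63 with 24 members between the genotypes in CD122+T-bet- cells, against 7.33% of 6945 genes, and -0.23 with 6 members between the TBGR C-mycD/DCd4 populations, against 2.44% of 5741 genes. The 4 measured genes of the myeloid and dendritic cell list were mostly Fcer1g and Cst3, with 1564 and 809 transcripts over all cells, against 24 of Csf1r, the next. Their sum thus does not by itself identify myeloid cells. It was 93.8, 302, 426 and 318 CPM along the TBGR series, and the libraries did not overlap at any step. In the TBGR C-mycfl/fl mouse these 4 genes stood at 32.1, 194, 333 and 596 CPM, highest in T-bet high cells, where the replication genes were lower. Cells of the TBGR C-mycD/DCd4 mouse gave more of them in the CD122+T-bet- sort, at 255 against 41.8 CPM, where the replication genes were lower too. Of the 4 markers, 1 or 2 were at 0 in each population, and their part in the results was not tested.

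**Figure D5:**
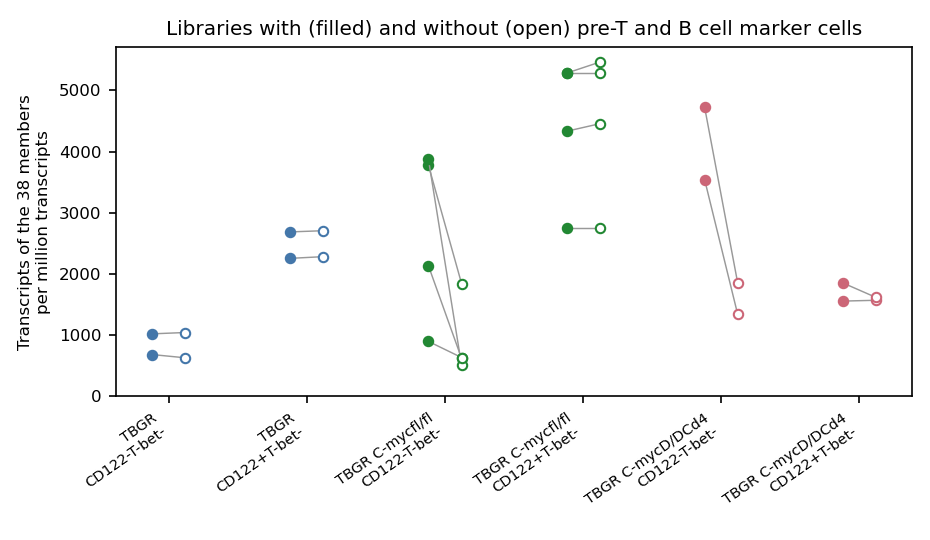
Summed CPM of the 38 genes in each library of the 2 populations without T-bet, with all kept cells (filled) and without cells that hold pre-T or B cell transcripts (open). The TBGR C-mycfl/fl and TBGR C-mycD/DCd4 CD122-T-bet- libraries are then between 508 and 1849 CPM, and their CD122+T-bet- libraries between 1569.6 and 5460 CPM.

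Genes that act later in the cycle had the same order along the TBGR series with wider differences. The 30 genes of G2 and mitosis, led by Mki67, Top2a and Ube2c, summed to 148, 2010, 3470 and 299 CPM along the TBGR series. All 27 tested of them met the criterion upwards in the first step and all 29 downwards in the last, with median log2 ratios of 3.78 and -3.52, against 1.51 and -1.45 for the replication genes. The shares of all genes were 14.3% of 9262 upwards in the first step and 11.7% of 8564 downwards in the last. The 2 T-bet high libraries stood at 112 and 677 CPM, and with library 1 alone 29 of 29 met the criterion in the last step, with a median of -4.99, and with library 2 alone 26, with a median of -2.25. Of all genes, 13.5% of 8275 met it downwards with library 1 alone and 16.7% of 7816 with library 2 alone. Mki67, a marker of cycling cells, stood at 10.2, 309, 600.4 and 34.1 CPM. In CD122+T-bet- cells the TBGR C-mycD/DCd4 mouse had 477 CPM of these genes against 2846 CPM in the TBGR C-mycfl/fl mouse, with 14 of 27 past the criterion downwards, all 27 below 0 and a median of -2.57. The share of all genes downwards was 6.13% of 7312 there. In the TBGR C-mycfl/fl mouse the lists parted in the last step, where the sum of the replication genes was lower within all 4 libraries while G2 and mitosis genes went from 2578 to 3299 CPM, with 25 of 29 above 0 and 0 of 29 past the criterion, against 1.36% of 6908 genes upwards.

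A further 60 genes of replication, led by Usp1, Rfc1 and Nasp and including origin recognition and polymerase delta and epsilon subunits, were less variable. They summed to 1250, 2433, 3048 and 1441 CPM along the TBGR series, with 26 of 53 past the criterion upwards in the first step and 26 of 57 downwards in the last. The same shares of all genes apply, 14.3% of 9262 upwards and 11.7% of 8564 downwards. The T-bet high libraries stood at 1165 and 2000.4 CPM. With library 1 alone 35 of 56 met the criterion, against 13.5% of 8275 genes, and with library 2 alone 15 of 56, against 16.7% of 7816 genes. In CD122+T-bet- cells they stood at 1800 CPM in the TBGR C-mycD/DCd4 and 3479 CPM in the TBGR C-mycfl/fl mouse, with overlapping sums and a median of -0.99. Downwards, 17 of 54 were past the criterion, against 6.13% of 7312 genes. Their promoter windows held the E2F-type word in 17 of 46 (37.0%).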

How the data were processed

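CEL-Seq2 libraries of single thymic NK1.1- IELPs were analysed from the authors' tables. Per the submitters' processing notes and the study's methods, reads were split with bcl2fastq 2.17.1.14, aligned with bwa 0.6.2-r126 to GENCODE VM9 transcripts, with isoforms and with loci overlapping by over 75% merged, and reads with several matches discarded. The deposited values are transcript counts that the authors estimated from unique molecular identifiers of 6 bases, corrected for identifiers drawn more than once and not whole. Undoing that correction gave whole identifiers for all 53166144 values (tolerance 1e-06). Corrected counts were rounded, mitochondrial and spike-in features dropped, and cells with at least 2000 transcripts kept. Doublets were not called.

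Cells were summed per library and population. Ratios are log2 with 0.5 added to each count and exact conditional 95% intervals, which cover counting error only, and shares have exact Clopper-Pearson intervals. No test was run, since every genotype was a single mouse. A gene was called if 2-fold different with no overlap of libraries and at least 20 transcripts in both groups together. The 16 members with the most transcripts are given by library. The members and lists were chosen with earlier results of these data known. Barcode plates of 96 cells were mapped to populations with the authors' deposited list. The calculations were checked on simulated data. Python 3.11.15, numpy 2.4.6, pandas 2.3.3, scipy 1.17.1 and matplotlib 3.10.9 were used.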

Additional observations from a re-analysis of the deposited data

Results flagged for a closer look

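Populations of 4 libraries, which the TBGR C-mycfl/fl mouse alone had, gave 72 groups of member values, and 5 of them held a library far from the other 3, where chance gives about 1 in 20. 2810417H13Rik stood at 83.7 CPM in library 2 of the CD122-T-bet- cells, against 347 to 366 CPM in the others. Dnmt1 stood at 139 CPM in library 4 of the CD122+T-bet int cells against 208 to 212 CPM, and Lig1 at 274.5 CPM in library 1 of the same cells against 127 to 149 CPM. Mcm3 stood at 42.4 CPM in library 4 of the CD122+T-bet- cells against 142 to 162 CPM. Mcm4 stood at 214.6 CPM in library 3 of the CD122+T-bet high cells against 58.4 to 75.6 CPM.

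The summed replication genes of the 2 populations without T-bet differed in opposite directions among the mice. The log2 ratio of CD122+T-bet- cells to the CD122-T-bet- ones was -1.31 in the TBGR C-mycD/DCd4 mouse, 0.16 to 2.55 within the 4 TBGR C-mycfl/fl libraries and 1.55 in the TBGR mouse. This difference between mice was not tested. Without pre-T marker cells the ratio in the TBGR C-mycD/DCd4 mouse was 0.08.

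Barcodes without a cell, which no comparison used, held 140 transcripts of the 38 genes out of 51080 in all, over 1920 barcodes, above the 3 that a count of 0 allows.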

How the results depend on the processing

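No test was run, so pairing entered only as ratios within the libraries that TBGR C-mycfl/fl populations shared (replicate block). Their mean was 0.89 in the first step and -0.73 in the last, close to the pooled 0.79 and -0.70. Of 537 alternative values, 460 counted as unchanged, 74 moved and 3 changed sign. Unchanged meant a share inside its interval, a count within 1.5-fold, or a ratio moved by less than the standard deviation of the libraries. The rule is wide where libraries differ. In the last TBGR step that deviation was 0.90, and sums of -0.62 and -1.86 both counted as unchanged beside -1.32. Leaving out marker cells and averaging within libraries were chosen after seeing the data, and the cause of the other moves was not tested. Depth limits the scarce genes, since genes with fewer than 20 transcripts were not compared.

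With a limit of 5 transcripts the share of high cells was 4.60, 25.3, 32.7 and 6.12% along the TBGR series, 23.3, 65.6, 69.0 and 40.2% along the TBGR C-mycfl/fl series and 21.9% in TBGR C-mycD/DCd4 CD122+T-bet- cells. With 15 it was 0, 3.23 and 10.5% in the first 3 TBGR populations, 18.9, 28.4 and 15.2% in the CD122+ TBGR C-mycfl/fl ones and 2.19% in TBGR C-mycD/DCd4 CD122+T-bet- cells. Without Mcm6, 2810417H13Rik and Pcna it was 4.84 and 12.3% in the middle 2 TBGR populations and 23.0, 32.8 and 17.0% in the CD122+ TBGR C-mycfl/fl cells. In cells with at least 4000 transcripts it was 32.4% in TBGR C-mycD/DCd4 CD122-T-bet- cells. Without pre-T marker cells it was 2.94% (TBGR C-mycfl/fl) and 8.82% (TBGR C-mycD/DCd4) in CD122-T-bet- cells, and without B cell and Trdc marker cells too 1.09 and 11.2%. Leaving out 1 library gave 0 to 1.15% in TBGR CD122-T-bet- cells, 13.1 to 24.1% with T-bet int and 0 to 3.64% with T-bet high.

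Counts of members past the criterion moved with its parts. Apart from the shares given above, the share of all genes was not taken under these changed rules. The counts below thus show how the calls moved and are not a result about the members. With at least 100 transcripts there were 11, 3 and 13 in the 3 TBGR steps (26, 6 and 23 with 20 transcripts), 10 of 20 between the TBGR C-mycD/DCd4 populations, and 4 of 8 and 13 of 22 between the genotypes in CD122-T-bet- and then in CD122+T-bet- cells. With a 4-fold limit the counts in that order were 10, 0 and 11, then 11, then 1 and 10, and the last TBGR C-mycfl/fl step had 0. With a 1.5-fold limit the second TBGR step had 15, the first TBGR C-mycfl/fl step 1 and its last step 11. With the fold alone these TBGR C-mycfl/fl steps had 12 and 8. In cells with at least 1000 transcripts they had 2 and 5, and with at least 4000 the first had 1. Counted from the median of all genes, 3 members were past the criterion between the genotypes in CD122-T-bet- cells. Leaving out 1 library gave 8 to 30 in the last TBGR step, 0 to 8 and 2 to 10 in the first and last TBGR C-mycfl/fl steps, and 4 to 11 between the genotypes in CD122-T-bet- cells.

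Without pre-T marker cells the first TBGR C-mycfl/fl step had a summed log2 ratio of 2.43, a median of 2.45 and 24 members past the criterion. Without B cell and Trdc marker cells too it had 2.54, 2.70 and 25, the last against 16.8% of 5976 genes upwards. Between the TBGR C-mycD/DCd4 populations the same values were 0.081, 0.19 and 5, then -0.23, -0.17 and 6. There the sum was -0.72 with cells weighed equally and -0.64 with cells thinned to 2000 transcripts. The median of the second TBGR C-mycfl/fl step was -0.0054 to 0.21 with 1 library left out and changed sign without library 1 of the CD122+T-bet int cells.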
